A study of Mus musculus with 24 samples.

Results

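The clusters of olfactory receptor genes on mouse chromosomes 2, 7 and 9 were examined in peak lists of 3 factors that act on RNA polymerase II soon after initiation. The windows were chr2:85300000-90200000, chr7:102600000-103700000 and chr9:37800000-40100000 of mm10, which is 4.9, 1.1 and 2.3 Mb, and a peak belonged to them if its midpoint lay inside. In all, 5181 of the 1811308 listed peaks did so, of which 3029 lay on chromosome 2, 657 on chromosome 7 and 1495 on chromosome 9. The rest of the same chromosomes held 330013 peaks over 434.493 Mb and served as the comparison. RefSeq places 483 receptor genes and pseudogenes (Olfr symbols) in the windows, 364 of them protein-coding, and 57 other genes, 8 of them protein-coding.

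The data are chromatin immunoprecipitation sequencing (ChIP-seq) of E14 mouse embryonic stem cells of genotype Nelfb deg, a degron allele, grown in serum/LIF. Only libraries labelled Control were analysed, from a treatment protocol that names DMSO and dTAG-13. All 6 carry the degron allele, so no unmodified line enters. Per antibody there were 2 libraries: NELFB:HA (HA antibody against the tagged NELFB subunit), NELFE (antibody to another NELF subunit) and SPT5 (antibody to DSIF). The labels do not say that the 2 libraries came from separate cultures, so the spread between them may be technical. Filtered ChIP tags ranged from 27324697 to 62312558 per library. The SPT5 libraries had longer tags than the 4 others and shared 1 input. The headers name 5 inputs for the 6 lists, but only 1 control input is among the labelled samples, so which input sample stands behind each fold and q is not given for every list. Effects of the SPT5 antibody and of that sequencing set-up cannot be told apart. The second SPT5 library had the most tags and the fewest listed peaks of the 6, and values without it are given beside the results.

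Olfactory receptors are G protein-coupled receptors of the nasal sensory neurons, in which each neuron transcribes a single receptor allele while the others stay packed in heterochromatin. The genes sit in large arrays with few other genes between them. NELF and DSIF, of which SPT5 is a subunit, bind RNA polymerase II just downstream of active promoters and hold it in a paused state, and SPT5 stays with the polymerase through the gene body. Whether receptor genes were transcribed in these cells was not measured in the files used here, so the silence of the clusters is a description taken from the biology of the family.

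The start regions that the results turn on are shown for 5 genes. Each run holds the 250 bases before the annotated start, on the strand of the gene, from RefSeq on GRCm38.p6 (mm10). Trim68, which encodes a tripartite-motif ubiquitin ligase, is the gene of the windows with a strong peak at its start, and its bases lie at chr7:102687328-102687577 on the minus strand. Olfr951 (chr9:39393543-39393792, plus) is the receptor gene with an annotated start nearest to a strong peak. Olfr1158 (chr2:87989863-87990112, plus) and Olfr555 (chr7:102658573-102658822, plus) had weak peaks near the start in 5 of 6 lists. Cbx3 (chr6:51470366-51470615, plus), outside the windows, encodes a heterochromatin protein and had a strong peak in all 6. Capitals mark matches on either strand to 3 motifs, which do not overlap one another in the printed runs. The first is TATAAA, the core of the TATA box. The second is the homeodomain core TAATTA. The third is the GC box, GGGCGG.
Trim68: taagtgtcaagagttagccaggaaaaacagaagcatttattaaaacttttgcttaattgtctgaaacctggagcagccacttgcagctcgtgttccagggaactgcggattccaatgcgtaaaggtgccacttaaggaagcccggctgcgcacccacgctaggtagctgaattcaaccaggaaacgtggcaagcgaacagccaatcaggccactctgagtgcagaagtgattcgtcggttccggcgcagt
Olfr951: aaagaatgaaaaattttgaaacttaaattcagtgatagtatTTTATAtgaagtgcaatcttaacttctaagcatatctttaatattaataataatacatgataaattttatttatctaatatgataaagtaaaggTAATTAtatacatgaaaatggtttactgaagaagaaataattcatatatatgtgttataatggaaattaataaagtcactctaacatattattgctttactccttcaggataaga
Olfr1158: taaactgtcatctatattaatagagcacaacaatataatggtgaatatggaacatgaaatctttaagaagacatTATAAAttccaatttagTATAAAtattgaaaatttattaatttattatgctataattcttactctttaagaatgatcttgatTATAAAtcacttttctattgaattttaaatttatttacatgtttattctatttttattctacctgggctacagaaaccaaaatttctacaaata
Olfr555: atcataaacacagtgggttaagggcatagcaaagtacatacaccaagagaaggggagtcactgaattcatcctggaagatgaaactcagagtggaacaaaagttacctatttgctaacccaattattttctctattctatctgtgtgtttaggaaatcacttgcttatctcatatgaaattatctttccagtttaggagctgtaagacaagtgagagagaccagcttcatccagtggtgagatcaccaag
Cbx3: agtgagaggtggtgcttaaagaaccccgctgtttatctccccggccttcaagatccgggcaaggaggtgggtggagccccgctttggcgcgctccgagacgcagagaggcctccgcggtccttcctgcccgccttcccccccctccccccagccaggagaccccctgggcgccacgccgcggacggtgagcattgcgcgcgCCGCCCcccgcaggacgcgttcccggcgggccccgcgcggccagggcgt
The GC content was 20.8% for Olfr951, 21.2% for Olfr1158 and 39.2% for Olfr555, against 50.4% for Trim68 and 73.2% for Cbx3. The 3 receptor runs held no CpG dinucleotide, Trim68 held 12 and Cbx3 held 29. The annotated start is an ATG for these 3 receptors and not for Trim68 or Cbx3. Over the 304 coding receptor genes of the windows with an annotated start, the median GC content of the 250 bases was 32.0% (quartiles 28.0 and 34.8), and over 3741 other coding genes of the same chromosomes it was 56.4% (quartiles 49.2 and 63.6). No CpG was present in 47.0% of the receptor runs and 5.03% of the others. TATAAA was present in 48.7% of the receptor runs and 10.4% of the others, TAATTA in 20.4% and 2.38%, and GGGCGG in 0.329% and 45.8%. An Olf1/Ebf-type motif, the site of a factor of olfactory neurons, was also searched on both strands and was present in 0 receptor runs and 0.936% of the others. The shares expected from base composition alone were not computed. The part of GC content in these motif differences was not tested. For 217 of the 304 receptor genes (71.4%) the annotated start is itself an ATG, compared with 6.50% of the other genes, so for most receptors the RefSeq model begins at the start codon and the true transcription start may lie elsewhere.

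Peaks were sparser in the clusters than in the rest of the same chromosomes in each of the 6 libraries. The NELFB:HA libraries had 122.7 and 174.5 peaks per Mb inside against 143.6 and 185.7 in the rest. The NELFE libraries had 62.4 and 71.7 inside against 87.5 and 93.1. The SPT5 libraries had 166.9 and 26.1 inside against 191.5 and 58.1. The gap was smallest in the second NELFB:HA library, at 6.08% fewer peaks per Mb, and largest in the second SPT5 library, at 55.0% fewer. On the log2 scale the ratio of inside to rest was −0.42 ± 0.38 (SD, n = 6), lower in 6 of 6 libraries, with a two-sided exact sign-flip permutation p of 0.03125, the smallest that 6 libraries allow, and 0.03125 after Benjamini-Hochberg adjustment over 5 measures. Without the second SPT5 library the mean was −0.28 ± 0.16 (SD, n = 5), 5 of 5 lower, with an exact sign-flip p of 0.0625, the smallest that 5 allow. Against all autosomes and X, the mean was −0.31, lower in 5 of 6 libraries, and the exact p 0.0625. All 6 libraries were scored on the same windows in cells of the same genotype, and the SPT5 libraries shared an input. They are therefore not independent draws, and the sign-flip p-values here and below speak of these libraries only. Whether the clusters differ from other stretches of the genome is not what these p-values test.

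**Figure D1:**
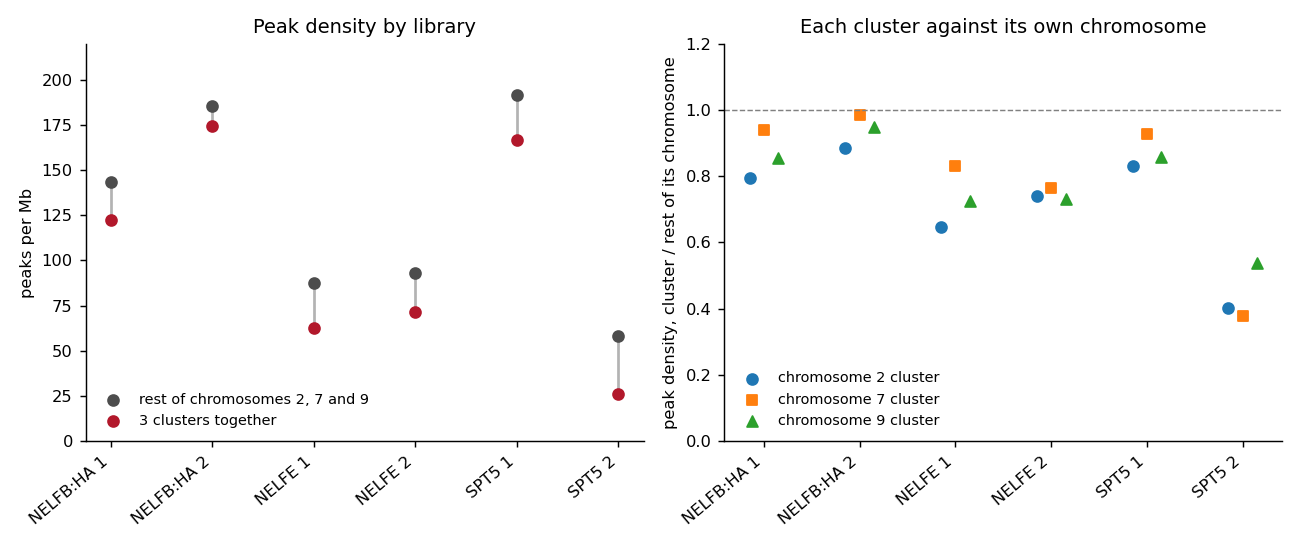
Left, peaks per Mb in each of the 6 libraries for the 3 clusters together (red) and for the rest of chromosomes 2, 7 and 9 (grey); right, the ratio of peak density in each cluster to the rest of its own chromosome. Every red point lies below its grey point, and the second SPT5 library has the lowest ratios, from 0.378 to 0.539.

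Each of the 3 clusters was sparser than the rest of its own chromosome in each library. The chromosome 2 cluster had 0.403 to 0.884 of the density of the rest of its chromosome (median over libraries 0.768), the chromosome 7 cluster 0.378 to 0.985 (0.880) and the chromosome 9 cluster 0.539 to 0.949 (0.794). These 3 ranges overlap. In 1 Mb tiles, 6 of which lay wholly inside the windows, all 6 had fewer peaks than the median of the 427 tiles of the rest, in each library. The chromosome 7 window held no whole tile, so these 6 lie in the windows of chromosomes 2 and 9. Tiles as sparse were not particular to the clusters: 2 to 5 of the 6 fell under the lower quartile of the rest, and the sparsest tiles of the rest held 0 peaks. Sequence gaps and unmappable stretches were not taken out of the tiles.

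Most flanks of the windows were denser. Over the 3 clusters, the 1 Mb on either side held 83.5 to 212.3 peaks per Mb, above the clusters in each library. By single flank, 4 of the 6 flanks had more peaks per Mb than their own cluster in all 6 libraries. The flank after the chromosome 2 window did in 5, and the flank after the chromosome 7 window in 2. The latter holds further receptor genes and the beta-globin genes, and had 27 to 157 peaks. Its 1 to 2 strong peaks per library (q of 0.01 or less, the authors' value) compare with 7 to 15 in the flank before that window. The flanks of the chromosome 2 window held 9 to 14 strong peaks before it and 8 to 10 after it, and each flank on chromosome 9 held 3 to 7.

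**Figure D2:**
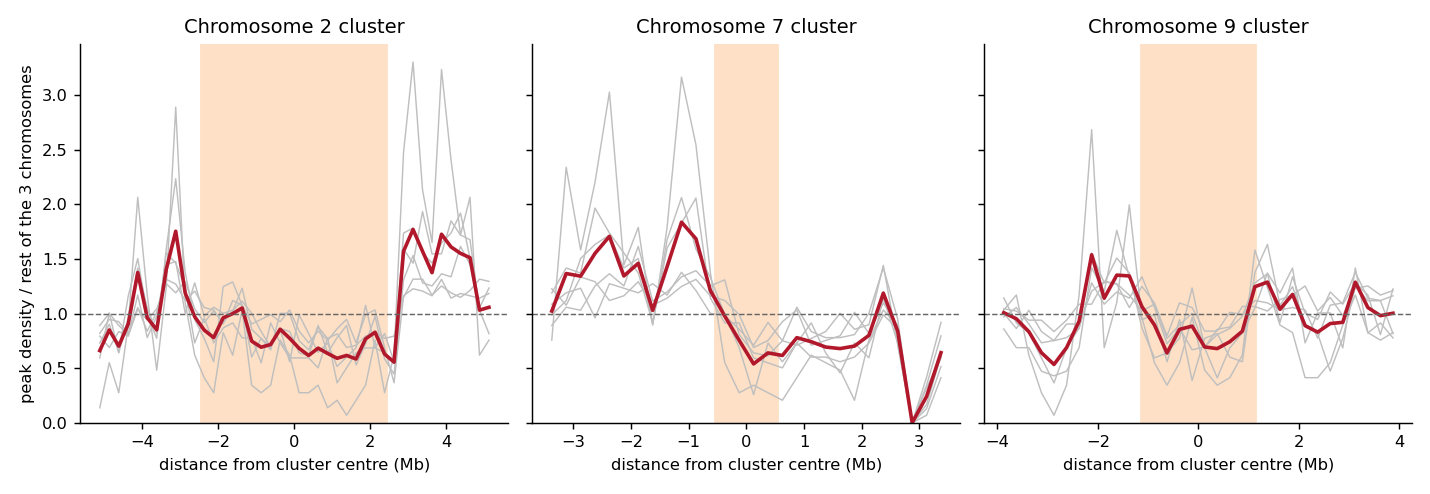
Peak density in 0.25 Mb bins, relative to the mean of the rest of chromosomes 2, 7 and 9 in the same library, against distance from the centre of each cluster in Mb. Grey lines are the 6 libraries, the red line is their mean, shading marks the window and the dashed line a ratio of 1; density stays low beyond the chromosome 7 window on 1 side, where the flank held 27 to 157 peaks.

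Cluster peaks were narrower, and the clusters were covered less. Inside, NELFB:HA peaks had median widths of 775.5 and 857.5 bp, NELFE peaks of 681 and 615 bp and SPT5 peaks of 730 and 487 bp. In the rest it was 844 and 957, 758 and 765, and 823 and 715.5 bp in the same order. The mean difference was −119 ± 60.5 bp (SD, n = 6), lower in 6 of 6, with an exact sign-flip p and adjusted p of 0.03125. Without the second SPT5 library it was −97.6 ± 31.8 bp (SD, n = 5; exact sign-flip p 0.0625). Taken cluster by cluster, the difference reached +4.5 bp on chromosome 7 and +2 bp on chromosome 9 in the library where it was highest, so it was not negative everywhere. Peaks over 2 kb made up 1.38% to 11.2% of cluster peaks and 7.42% to 17.4% of the rest. Peaks covered 11.3% and 18.6% of the windows in NELFB:HA, 4.73% and 5.36% in NELFE, and 14.5% and 1.58% in SPT5. The rest was covered to 15.3% and 23.3%, 8.11% and 8.87%, and 21.7% and 6.41%. The log2 ratio of covered shares was −0.81 ± 0.61 (SD, n = 6; exact sign-flip p and adjusted p 0.03125), and −0.57 ± 0.19 without the second SPT5 library (SD, n = 5; exact p 0.0625).

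Ranked by pileup, the deposited ChIP coverage, cluster peaks sat in the lower part of the lists. The median cluster peak was at percentile 38.2 and 35.4 in NELFB:HA, 35.7 and 37.76 in NELFE, and 31.6 and 27.6 in SPT5, among all peaks of the 3 chromosomes. The distance from 50 was −15.6 ± 4.05 (SD, n = 6), below 50 in 6 of 6 (exact sign-flip p and adjusted p 0.03125). Without the second SPT5 library it was −14.3 ± 2.60 (SD, n = 5; exact sign-flip p 0.0625). No cluster peak of any library was in the top 1% by pileup. The top 10% held 1.38% to 3.87% of the cluster peaks and the bottom 10% held 13.3% to 19.8%.

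**Figure D3:**
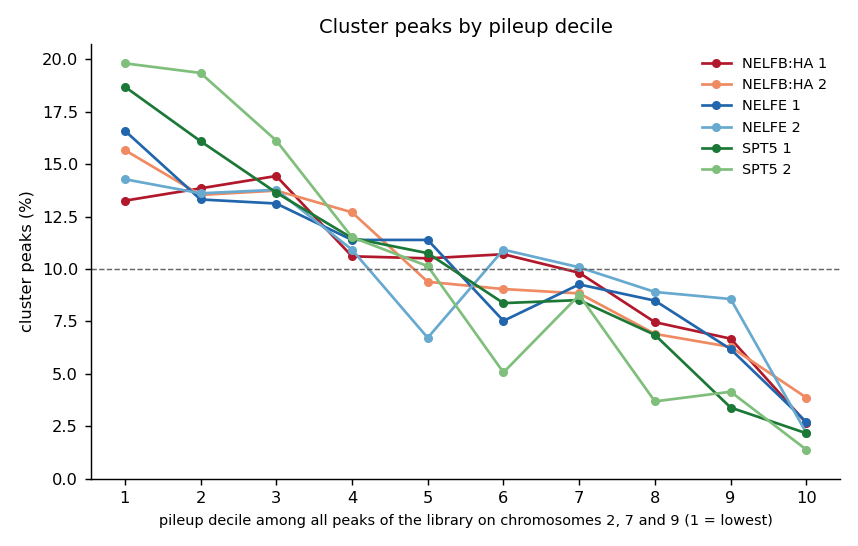
Percent of the cluster peaks of each library (y axis) that fall in each decile of the pileup ranking of all its peaks on chromosomes 2, 7 and 9 (x axis, 1 lowest); the dashed line at 10% is an even spread. All 6 lines fall, to between 1.38% and 3.87% in the top decile.

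The fold enrichment of the same peaks, which divides coverage by a local background, did not separate the clusters in this way. The median fold inside was 1.63 and 1.66 in NELFB:HA, 1.77 and 1.88 in NELFE, and 1.65 and 1.71 in SPT5, and in the rest it was 1.65 and 1.67, 1.77 and 1.87, and 1.68 and 1.70. Ranked by fold, the median cluster peak was at percentiles 44.6 and 47.6, 49.6 and 52.3, and 41.9 and 53.7, a mean distance from 50 of −1.73 ± 4.52 (SD, n = 6; exact sign-flip p 0.40625). Ranked by −log10 p the distance was −4.65 ± 3.73 (SD, n = 6; exact sign-flip p 0.03125), below 50 in 6 of 6. The background implied by pileup and fold lay within 1% of the genome-wide value (filtered tags times extension over effective genome size), for 58.8% to 75.9% of cluster peaks and for 25.4% to 46.4% of peaks in the rest. The share was higher inside in each library, and its part in the pileup ranks was not tested. GC content and mappability of the windows were not measured, and their part in the peak density was not tested.

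Strong peaks, at q of 0.01 or less, were rare in the clusters. The lists held 4 and 3 of them with NELFB:HA, 6 and 8 with NELFE, and 0 and 2 with SPT5. As a share of cluster peaks this is 0.393% and 0.207%, 1.16% and 1.34%, and 0% and 0.922%. The share over each whole list was 2.97% and 1.85%, 5.52% and 5.42%, and 1.51% and 6.08%, and in the rest of the same chromosomes 3.32% and 2.09%, 5.95% and 5.87%, and 1.67% and 6.52%. The difference from that rest was −3.56 ± 1.64 percentage points (SD, n = 6), lower in 6 of 6 (exact sign-flip p and adjusted p 0.03125), and −3.16 ± 1.45 without the second SPT5 library (SD, n = 5; exact p 0.0625). Among the 10000 peaks of highest −log10 p in each list, 2 to 8 lay in the clusters, and the log2 density ratio was −3.40 ± 0.67 (SD, n = 6; exact sign-flip p 0.03125). Per Mb, the clusters had 0 to 0.964 strong peaks and the rest 3.19 to 5.46. Between 17.3% and 26.5% of the 1 Mb tiles of the rest also had no strong peak. The count of 0 of 1385 in the first SPT5 library allows a share of up to 0.217% (3 counts); such limits, and the intervals below, cover counting error only.

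The 23 strong peaks, 21 of NELF and 2 of SPT5, lay in 9 regions, and 8 of these regions were strong in 2 or more libraries. None of the strong peaks overlapped a receptor gene. With overlapping weak peaks joined to them, each of the 9 regions held a listed peak in 5 or 6 of the 6 libraries. The joined regions can run further than the strong peaks. Positions and gene distances below are those of the strong peaks only. The region strong in most libraries was chr2:86365698-86366362, which lies between genes, 8101 bp from Olfr1057. Its −log10 q was 5.98 and 5.01 with NELFB:HA, 3.22 and 7.15 with NELFE, and 1.72 and 1.49 with SPT5. All 4 NELF libraries were past the threshold of 2 and both SPT5 libraries were under it. The fold enrichment was 3.85, 3.82, 3.34, 4.71, 2.47 and 2.42 in the same order. The region chr7:102620200-102620855, 5213 bp from Olfr553, had the highest −log10 q of the clusters, 7.80 in the second NELFE library, beside 5.75 in the first, 4.83 and 1.68 in NELFB:HA, and 1.17 in the first SPT5 library, with the second lower still.

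At chr7:102686527-102688544, the strong peaks spanned the start of Trim68, at position 102687327, whose upstream bases are printed above. The −log10 q was 2.81 and 1.19 in NELFB:HA, 2.90 and 4.24 in NELFE, and 0.316 and 0.0711 in SPT5. This was the region among the 9 whose strong peaks overlapped a gene. At chr9:38965012-38965610, 10068 bp from Olfr933, the second SPT5 library gave 4.13 and the NELFE libraries 2.25 and 2.15, with 0.289, 1.29 and 0.363 in the others. At chr9:38551557-38553003, 11728 bp from Olfr910, the second SPT5 library (2.54) and the second NELFE library (3.52) were past the threshold. These are the 2 strong SPT5 peaks of the clusters, and neither was strong in the first SPT5 library.

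The 4 other regions were nearer the threshold. At chr9:38840498-38840978, 7138 bp from Olfr924, the NELFB:HA libraries gave 2.06 and 2.36 and the second NELFE library 2.997. At chr9:39395382-39396575, which begins 645 bp from Olfr951, only the NELFE libraries passed, at 2.22 and 2.16, and the second NELFB:HA library gave 1.95. At chr2:90086523-90087680, 64 bp from the pseudogene Olfr1267-ps1, the NELFE libraries gave 2.13 and 2.25. At chr2:88711466-88712270, 10139 bp from Olfr1196, the second NELFB:HA library alone passed, at 3.12. The highest fold of any cluster peak was 2.57 to 4.87 by library, against 9.75 to 20.6 in the rest.

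**Figure D4:**
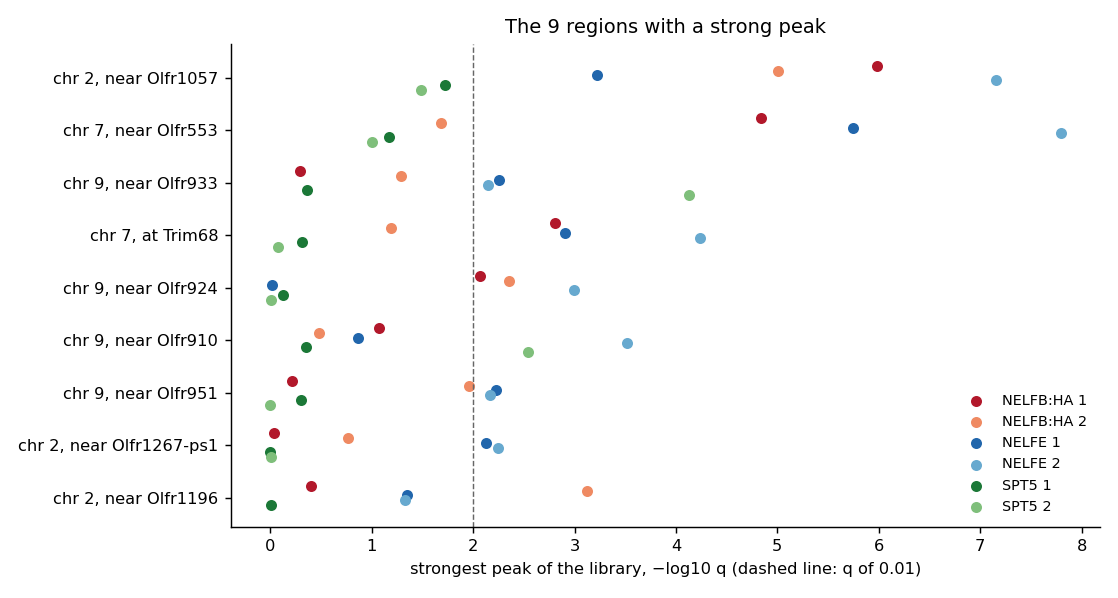
The −log10 q (x axis) of the strongest peak of each library in the 9 regions of the clusters with a peak at q of 0.01 or less (y axis, by chromosome and nearest gene); the dashed line is the threshold. The 4 NELF libraries pass it near Olfr1057, and the 2 SPT5 points past it, near Olfr933 and Olfr910, belong to the second SPT5 library.

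The peak of highest pileup in the clusters was one of these regions in each list: near Olfr1057 in both NELFB:HA libraries, at Trim68 in the first NELFE library, and near Olfr553 in the second NELFE library and both SPT5 libraries. In its whole list that peak ranked within the top 1.26% to 5.37% by pileup. The widest cluster peaks were otherwise weak. They measured 5630 and 6677 bp in NELFB:HA, 2919 and 3459 bp in NELFE, and 5375 and 3536 bp in SPT5. Their −log10 q was 0 to 0.246 in the first 5 lists and 1.49 in the second SPT5 library, whose widest peak covered the Olfr1057 region. Of the 16 merged cluster regions with a peak in all 6 lists, 8 are among the 9 strong regions.

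Annotated receptor starts carried weak peaks and no strong ones. For 71.4% of the 304 receptor genes that start is an ATG, against 6.50% of the 3741 other coding genes. The true transcription start may therefore lie outside the stretch counted, and the part of this in the differences below was not tested. Within 1 kb of the start, 41.8% and 58.6% of the 304 receptor genes had a listed peak in NELFB:HA, 23.0% and 21.1% in NELFE, and 48.7% and 4.93% in SPT5. Of the 3741 other coding genes, 77.7% and 80.6%, 72.0% and 73.0%, and 82.2% and 65.5% did. The mean difference was −42.2 ± 14.1 percentage points (SD, n = 6), lower in 6 of 6 (exact sign-flip p 0.03125), and −38.5 ± 12.2 without the second SPT5 library (SD, n = 5; exact p 0.0625). A strong peak stood within 1 kb of 0 of 304 receptor starts in each of the 6 libraries, which allows a share of up to 0.987% (3 counts). Of the other genes, 46.2% and 39.3% had one in NELFB:HA, 47.8% and 49.1% in NELFE, and 34.1% and 39.1% in SPT5. The shares for stretches of the same length elsewhere in the clusters were not counted. The receptor values are therefore not set apart from the peak density of the clusters as a whole. Receptor genes are paralogs of one another, and the handling of reads with several matches is not given in the sources used here.

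**Figure D5:**
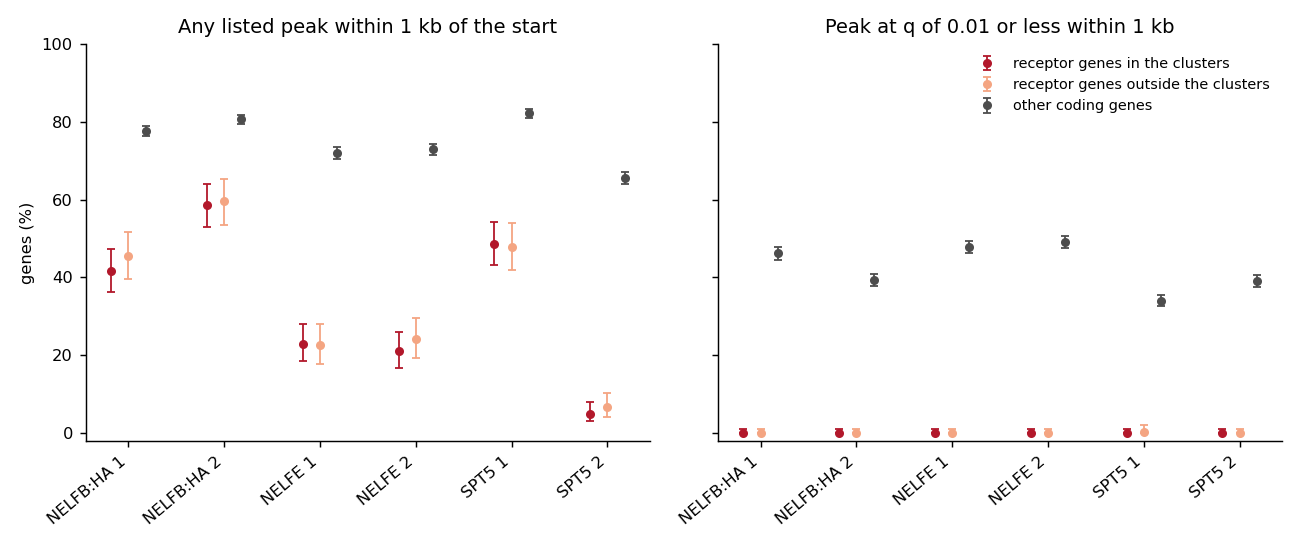
Percent of genes (y axis) with any listed peak (left) or a peak at q of 0.01 or less (right) within 1 kb of an annotated start, for receptor genes inside the windows (n = 304), receptor genes outside them on the same chromosomes (n = 257) and other coding genes (n = 3741); bars are Wilson 95% intervals or, for a count of 0, the limit of 3 counts. In the right panel the receptor points of the windows are at 0 in all 6 libraries.

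The 257 coding receptor genes of chromosomes 2, 7 and 9 outside the windows were measured in the same way. A listed peak stood near 45.5% and 59.5% of them in NELFB:HA, 22.6% and 24.1% in NELFE, and 47.9% and 6.61% in SPT5. A single start had a strong peak, that of Olfr986 in the first SPT5 library, inside a 17287 bp peak at chr9:40185363-40202649. Across the lists, 0 of the 304 receptor starts of the windows had a peak in all 6, against 2114 (56.5%) of the other genes, and 7 had one in 5 lists. These were Olfr1037, Olfr1136, Olfr1158, Olfr1214, Olfr1246, Olfr555 and Olfr620. At Olfr1158, where TATAAA occurs 3 times in the printed bases, the fold was 1.57 and 1.77 in NELFB:HA, 1.89 and 1.94 in NELFE and 1.57 for the first SPT5 library. The −log10 q there was at most 0.110. Only the peaks of the first NELFB:HA library and the second NELFE library overlapped the printed bases of Olfr1158, and the others lay to either side. At Olfr555 the first SPT5 library had the highest fold, 2.42, and the second NELFE library had no peak. No listed peak near the Olfr555 start overlapped its printed bases. Receptor gene bodies take up 8.55% of the windows and held 5.99% to 11.6% of the peak midpoints.

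Of 7 other coding genes of the windows with an annotated start, Trim68 was the one with a strong peak. Fads2b, a fatty acid desaturase gene, Pramel7 and Pramel6 had weak peaks in 2 lists each, Usp17lc and AW551984 in 1, and Usp17ld in none. The 4 beta-globin genes with a start, beside the chromosome 7 window, had no strong peak. The same measure outside the clusters shows the range in these lists. Over all 17273 coding genes of the autosomes and X with a start, 29.8% had a strong peak there in all 6 libraries. Of 8 heterochromatin genes, 7 had a strong peak at the start in all 6 libraries, for example Cbx3, with a fold of 11.1 and 9.06 in NELFB:HA, 10.9 and 10.9 in NELFE, and 5.17 and 5.16 in SPT5. Setdb1, which encodes a histone H3 lysine methyltransferase, had folds of 2.44 to 7.72. Ehmt2 was strong in 2 libraries. Of 7 pluripotency genes, which mark the labelled cell type, 5 were strong in all 6, among them Pou5f1 with folds of 2.70 to 3.70. Nanog was strong in 2 libraries and Esrrb in 0.

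Among 11 genes with a start that regulate receptor choice or act in olfactory signalling, 3 were strong in all 6 libraries, a share close to the 29.8% of all coding genes. These were Ldb1, a cofactor of LIM-homeodomain proteins, Kdm1a, a histone demethylase, and Atf5, a transcription factor, with folds of 2.32 to 4.47, 2.72 to 6.12 and 2.53 to 9.48. Lhx2, the LIM-homeodomain factor of these neurons, Ebf1, Ebf3, Emx2, Rtp2 and Cnga2 were strong in none, and Ebf4 and Adcy3 in 1 library each.

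Replicate lists shared fewer peaks inside the clusters. Of the cluster peaks in the shorter list of each antibody, 41.6% overlapped a peak of the other library in NELFB:HA (Wilson 95% interval 38.6 to 44.6), 14.7% in NELFE (11.9 to 17.98) and 37.3% in SPT5 (31.2 to 43.9). In the rest the shares were 49.8%, 29.5% and 59.9%. The other list covered less of the clusters than of the rest, as given above, and overlap by position alone was not removed. Merged over all lists, the clusters held 2952 regions, of which 58.1% were in 1 list and 0.542% (16 regions) in all 6. The rest had 50.8% in 1 list and 3.85% in 6. The longest stretch without a peak in any list was 42096 bp on chromosome 2, 20803 bp on chromosome 7 and 12731 bp on chromosome 9.

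With 2 libraries per antibody, no difference between antibodies could pass the exact test. The log2 density ratio was −0.16 ± 0.10 in NELFB:HA, −0.43 ± 0.08 in NELFE and −0.68 ± 0.67 in SPT5 (SD, n = 2 each). NELFB:HA was higher than NELFE by 0.27 (pooled SD 0.088; two-sided exact permutation p 0.333, the smallest that 2 against 2 allow), and the groups did not overlap. NELFB:HA was higher than SPT5 by 0.52 (exact permutation p 0.667) and NELFE than SPT5 by 0.24 (exact permutation p 1), with SPT5 values on both sides of NELFE. All 3 adjusted p-values of these exact tests were 1. Both SPT5 comparisons changed sign when the libraries numbered 2 were left out, to −0.029 and −0.29. The antibodies also differed in list length. The NELFB:HA lists held 343503 and 447756 peaks, the NELFE lists 203679 and 217115, and the SPT5 lists 462153 and 137102. The part of list length in the density ratios was not tested.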

How the data were processed

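ChIP-seq peak lists of 6 control libraries out of 24 samples in the series were analysed. The submitters' processing notes name Bowtie2, MACS2, deepTools and mm10. Per the file headers, the authors called broad peaks with MACS 2.1.1.20160309 on each library against an input, without pooling, at p-value cutoffs of 0.01 (strong) and 0.1 (weak, joining), keeping 1 tag per position. ChIP and input were brought to the smaller of the pair, so the deposited pileup signal (coverage) was ranked only within a library. Fold enrichment was deposited as coverage over local background, a ratio. The −log10 p-value and the −log10 q-value were deposited as region means; the headers say that q is not calculated, yet the column holds values from 0, used here as the authors' q. Width is the deposited length.

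Groups came from the titles. Density, covered share, median width, median pileup percentile and strong share (q of 0.01 or less) of the clusters were set against the rest of chromosomes 2, 7 and 9 in each library, with two-sided exact sign-flip permutation tests over libraries, and antibodies with exact permutation tests. Chromosome length ran from the first to the last listed base. Gene names, starts and sequences came from RefSeq tables (GRCm38.p6). Named regions were all merged regions with a strong peak, the 2 of each cluster found in most lists (ties by mean pileup percentile), and the highest and widest peak of each list. The members and lists were chosen with earlier results of these data known; the test at gene starts and values without the second SPT5 library were added after seeing the data. No region was identical between replicate lists. The scripts (python 3.11.15, numpy 2.4.6, pandas 2.3.3, scipy 1.17.1) were tested on simulated data. Samples treated with dTAG-13 and the naive and EpiLC samples were not analysed here.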

Additional observations from a re-analysis of the deposited data

How the results depend on the processing

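Leaving out a cluster, counting any peak that overlaps a window (no membership changed), dropping the 1 Mb flanks and keeping the peaks above each list's median −log10 p preserved the direction and the side of the threshold of the 5 measures (for the last, of the 4 without the strong share). Over leave-one-out settings (replicate 1, replicate 2, the second SPT5 library) the density log2 ratio ranged from −0.54 to −0.28, the covered share from −1.02 to −0.57, the width difference from −159 to −79.5 bp, the pileup percentile from −16.4 to −14.3, the strong share difference from −4.00 to −3.13 points, and any peak at starts from −44.9 to −38.5 points. With 3 or 5 libraries the exact test cannot pass 0.05, so these p-values say nothing on stability. Against the autosomes and X the density ratio was −0.31 (exact p 0.0625). With only peaks at q of 0.01 or less it was −3.21 in the 5 libraries with such a peak inside (exact p 0.0625). Ranked by fold enrichment the percentile was −1.73 from 50 (exact p 0.40625); the cause was not tested.

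Among antibodies, leaving out replicate 1 or 2 moved the NELFB:HA minus NELFE difference between 0.26 and 0.29. NELFB:HA minus SPT5 lay between −0.029 and 1.06. NELFE minus SPT5 lay between −0.29 and 0.78, and was −0.28 among the 10000 peaks of highest −log10 p. Among those 10000, NELFB:HA minus NELFE was 0.78 (pooled SD 0.87). Among peaks above the median −log10 p it was 0.12 (pooled SD 0.12). The exact permutation p was 0.667 in both settings. With a replicate block the differences were 0.27, 0.52 and 0.24, with SDs of 0.019, 0.77 and 0.75. Deviations of same-numbered libraries correlated at 0.0142, −0.0256 and 0.0188 over 5576 regions. These correlations cannot tell whether same-numbered libraries shared a batch, and the labels give them only a number. In the clusters, replicate overlap of at least 50% of the peak gave 21.9% in NELFB:HA, 6.76% in NELFE and 24.0% in SPT5. The rest gave 28.3%, 17.4% and 41.8%. Among peaks above the median −log10 p the overlap was 21.4% in NELFB:HA, 12.4% in NELFE and 15.8% in SPT5. For the rest it was then 34.4%, 27.0% and 54.3%. There were 15 strong regions at q of 0.05 and 2 at 1e-05, against 9. The start test with its windows of 250 bp and 2 kb, the density at q of 0.01 or less, the counts of strong regions at other q and all values without the second SPT5 library were chosen after seeing the data. Few cluster peaks are strong, and 2 libraries per antibody limit all comparisons between antibodies.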
